A study of Mus musculus with 8 samples.

Results

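Fibronectin (Fn1), versican (Vcan), periostin (Postn) and 7 further genes of the provisional and matricellular matrix (Sparc, Tnc, Thbs1, Thbs2, Fbn1, Spp1 and Prg4) were followed in sorted mouse tumour cells. The genes were chosen by an earlier look at EGFP-high minus EGFP-low values on these same arrays, so their lower signal in EGFP-high cells is a description and carries no test here. The platform annotation gave probe sets to 8 of the 10 genes, 22 probe sets of the 45101 on the array. All 8 were among the 12177 of 18193 named genes with a log2 signal above 5 on at least 2 arrays. Prg4 passed that filter only through the 2 arrays of EGFP-low colon26 cells. Fbn1 and Spp1 were not analysed here, because no probe set carried their symbol in the annotation table used.

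The tumours were of 2 kinds, LLC, a mouse Lewis lung carcinoma line, and colon26, a mouse colon carcinoma line. Both lines stably carried EGFP under the promoter of mouse PSF1, the protein made by Gins1, which works at replication forks as a subunit of the GINS complex. All 4 groups therefore carried the reporter: LLC EGFP-low, LLC EGFP-high, colon26 EGFP-low and colon26 EGFP-high. Tumours grew under the skin of mice for 4 weeks (LLC) or 2 weeks (colon26) and were dissociated and sorted by EGFP, with 2 arrays per group numbered 1 and 2. The strain, age and sex of the hosts, whether each reporter line was 1 clone, and whether the numbers stand for separate tumours are not stated in the labels. The errors and p-values therefore describe the spread among these arrays. Line and weeks of growth cannot be told apart, and in bulk RNA fewer cells of a type and less RNA per cell cannot be told apart.

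Fibronectin is a large secreted glycoprotein that cells assemble into fibrils through integrins, and those fibrils form an early scaffold for other matrix proteins. Versican is a chondroitin sulphate proteoglycan that binds hyaluronan and loosens the matrix around dividing and migrating cells. Periostin, SPARC, tenascin C and the thrombospondins are called matricellular proteins, because they sit in the matrix and tune adhesion and growth factor signals more than they bear load. In tumours these proteins are made both by stromal fibroblasts and by some carcinoma cells.

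The promoters of Postn, Tnc and Thbs2 are shown because these genes gave the contrasts described below: Postn differed between the sorts in both lines, and Tnc and Thbs2 differed most clearly between the lines among the genes with a sequence. Each is the 250 bases before an annotated start, from RefSeq on mouse assembly GRCm38.p6, read 5′ to 3′ on the strand of the gene. They are chr3:54359017-54359266 (+) for Postn, chr4:64047016-64047265 (−) for Tnc and chr17:14694263-14694512 (−) for Thbs2. Capitals mark matches, on either strand, to the searched motifs CAGAC (SMAD) and GGGCGG (GC box).
Postn: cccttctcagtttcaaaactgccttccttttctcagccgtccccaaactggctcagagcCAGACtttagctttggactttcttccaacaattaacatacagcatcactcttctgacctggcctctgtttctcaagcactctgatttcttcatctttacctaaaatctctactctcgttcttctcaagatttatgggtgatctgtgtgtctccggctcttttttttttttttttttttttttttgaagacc
Tnc: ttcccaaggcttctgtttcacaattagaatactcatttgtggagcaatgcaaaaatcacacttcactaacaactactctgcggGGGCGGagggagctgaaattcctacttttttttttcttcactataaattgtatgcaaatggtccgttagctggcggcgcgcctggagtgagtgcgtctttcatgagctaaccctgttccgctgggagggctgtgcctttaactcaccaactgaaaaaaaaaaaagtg
Thbs2: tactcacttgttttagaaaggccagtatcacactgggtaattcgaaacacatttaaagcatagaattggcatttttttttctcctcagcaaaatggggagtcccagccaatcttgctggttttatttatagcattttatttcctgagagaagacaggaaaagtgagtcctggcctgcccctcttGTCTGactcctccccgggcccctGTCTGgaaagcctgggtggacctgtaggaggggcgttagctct

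The SMAD motif began 191 bases before the start in the Postn window and 66 and 43 bases before it in the Thbs2 window. The GC box began 167 bases before the Tnc start. Of all 32851 promoter windows of 250 bases, 42.2% held the SMAD motif and 32.7% the GC box. Of 10 windows of the chosen genes, alternative starts included, 6 held the SMAD motif and 4 the GC box. Fn1, Thbs1 and Prg4 had no window, and windows of Fbn1 and Spp1, which were not measured, are included. The Tnc windows overlap and share a GC box, which counts in both. The letters TATATAA, of the kind that core promoters hold, lay in 2 of those 10 windows and in 3.04% of all windows. It began 28 bases before a second annotated Postn start and 29 bases before a second Tnc start. The window of that second Tnc start, not printed here, also held the SMAD motif, 70 bases before the start. The window of the second Postn start, also not printed, held neither the SMAD motif nor the GC box. TGANTCA (AP-1, in 6.75% of all windows) and GGAATG (MCAT, in 12.6%) had no match in the 10 windows. These matches describe the letters in the windows only.

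Arrays with the same number shared much of their signal. Beyond the group means, arrays of 1 line and number moved together (correlation across genes 0.89 in LLC and 0.84 in colon26), and so did arrays of 1 number across lines (0.74 and 0.84). The control transcripts' 3′ probe sets exceeded their 5′ ones by a median log2 difference of 2.41 to 2.70 on the arrays numbered 1 and of −0.01 to 0.35 on those numbered 2. High and low arrays were therefore compared within a line and number. The median log2 signal of the arrays ran from 4.76 to 5.02 and their highest signal from 14.37 to 14.53. Gins1 was at 7.23 and 7.14 in LLC EGFP-low, 8.42 and 8.51 in LLC EGFP-high, 7.56 and 6.97 in colon26 EGFP-low, and 8.29 and 8.38 in colon26 EGFP-high cells.

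All 8 genes measured were lower on both LLC EGFP-high arrays than on both LLC EGFP-low arrays, and 6 of 8 were so in colon26. Over all genes tested the shares with such separate groups were 14.6% in LLC and 9.02% in colon26. With the pair as a block in limma and a Benjamini-Hochberg adjusted p under 0.05, 7 of 8 were called lower in LLC, against 6.04% of all genes. In colon26, 2 of 8 were called lower, Postn and Prg4, against 1.58% of all genes. Prg4 passed the filter only through the 2 colon26 EGFP-low arrays, so its place among the lower genes in colon26 follows from that filter. For the mean of both lines all 8 were called lower, against 5.57%. The place of Prg4 in that count also rests on its colon26 difference, whose direction the filter fixed. With no pair block limma called 0 of 8 in each of the 3, and 6, 2 and 7 had an unadjusted p under 0.05. The median fitted difference of the 8 genes was −2.04 in LLC and −0.45 in colon26, where the medians of all genes were 0.04 and 0.08. Nothing is read from these counts, since the genes were selected on the same differences. Values below are log2 signals of the brightest probe set of each gene, and the levels of different genes are not compared with each other.

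**Figure D1:**
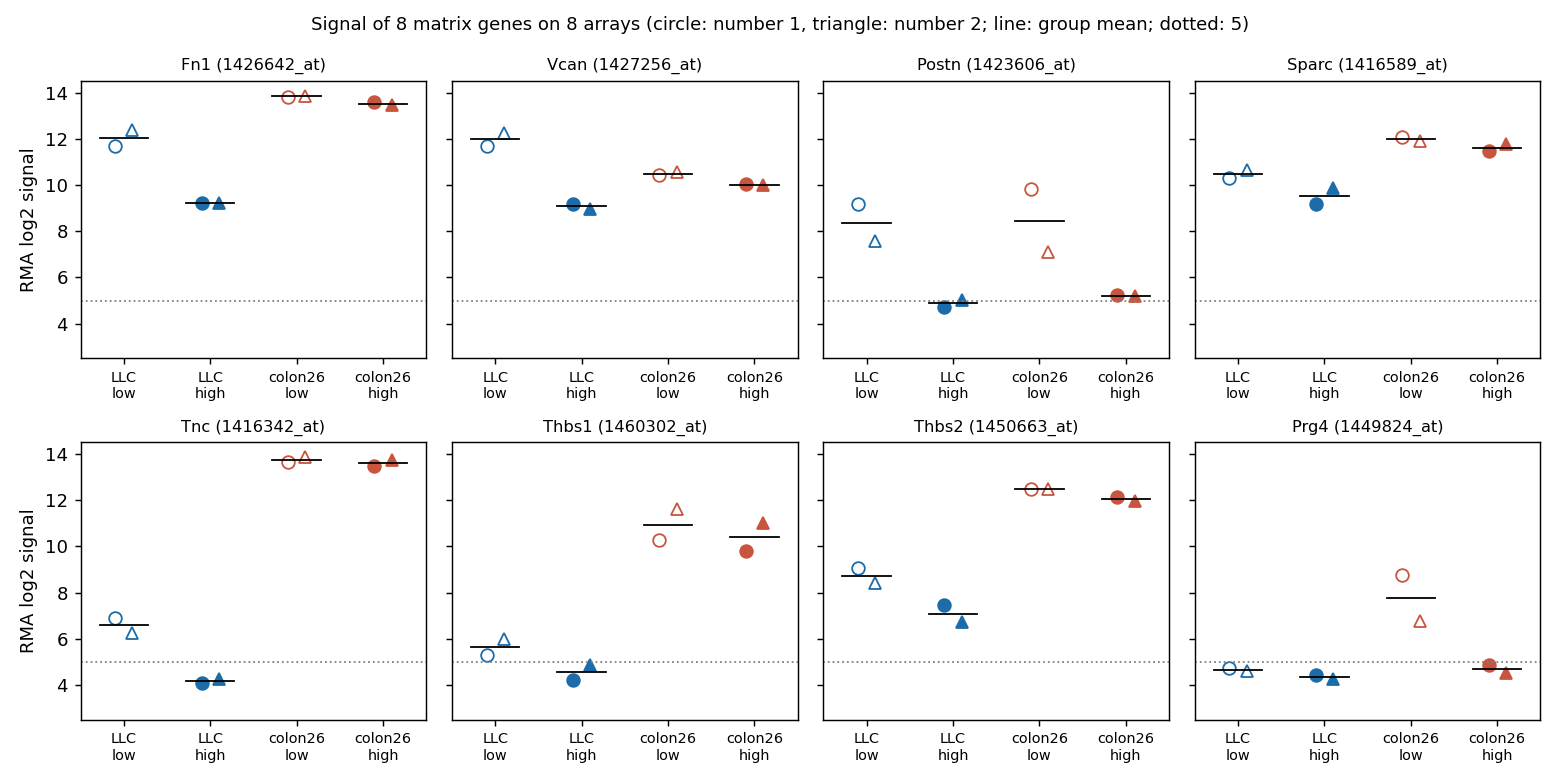
Log2 signal of the 8 measured genes on each of the 8 arrays, 1 panel per gene, with the brightest probe set of each; points are single arrays, with the 4 groups along the x axis (LLC blue, colon26 red, EGFP-low open), circles for number 1 and triangles for number 2; lines are group means and the dotted line is the filter at 5. The Postn panel drops in both lines, the Fn1, Vcan, Tnc and Thbs2 panels drop mainly in LLC, and the Prg4 panel drops in colon26.

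Fibronectin was lower in EGFP-high LLC cells, with a smaller difference in colon26. Its log2 signal was 11.68 and 12.39 in LLC EGFP-low and 9.22 and 9.22 in LLC EGFP-high cells. The colon26 values were 13.83 and 13.87 in EGFP-low and 13.59 and 13.46 in EGFP-high cells. The EGFP-high arrays lay below the EGFP-low arrays in both lines with no overlap. Within the pairs the LLC difference was −2.46 and −3.16, a fitted difference of −2.81 (SE 0.21) or 7.03-fold. The colon26 pairs gave −0.24 and −0.41, a fitted difference of −0.32 (SE 0.21). The dimmer Fn1 probe set 1437218_at gave −0.58 and −0.63 in the colon26 pairs, and −2.97 and −3.39 in the LLC pairs.

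Versican showed a gap of like size in LLC. Its signal was 11.68 and 12.27 in LLC EGFP-low and 9.19 and 8.97 in LLC EGFP-high cells, a fitted difference of −2.90 (SE 0.22) or 7.46-fold. Colon26 cells were at 10.42 and 10.56 in EGFP-low and 10.04 and 10.004 in EGFP-high cells, a fitted difference of −0.47 (SE 0.22). The mean of all 8 Vcan probe sets, 4 of them under the filter, gave −1.42 in LLC. The sorts did not overlap in either line. Versican was the only 1 of the 8 genes whose highest signals were in LLC EGFP-low cells on both numbers.

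Periostin, which binds collagen, fibronectin and tenascin C and is used as a marker of activated fibroblasts, was lower in EGFP-high cells of both lines. Its signal was 9.16 and 7.59 in LLC EGFP-low and 4.74 and 5.04 in LLC EGFP-high cells. In colon26 Postn was at 9.83 and 7.09 in EGFP-low and 5.24 and 5.18 in EGFP-high cells. The fitted difference was −3.48 (SE 0.54) in LLC and −3.25 (SE 0.54) in colon26. The 4 EGFP-low arrays were high and the 4 EGFP-high arrays lay between 4.74 and 5.24, close to the arrays' median signal, so the sorts did not overlap. The pairs differed in size: 21.3-fold in LLC number 1 and 5.86-fold in LLC number 2, and 24.2-fold and 3.76-fold in colon26. The EGFP-low arrays numbered 2 differed from those numbered 1 by −1.57 in LLC and −2.74 in colon26. In colon26 the call was lost without pair 1 (−1.91) and without pair 2 (−4.59), with adjusted p = 0.16 and 0.14.

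SPARC, a collagen-binding glycoprotein, differed least in LLC among the 7 genes called there. Its signal was 10.32 and 10.63 in LLC EGFP-low and 9.16 and 9.88 in LLC EGFP-high cells, a fitted difference of −0.95 (SE 0.20). For colon26 the values were 12.09 and 11.90 in EGFP-low and 11.47 and 11.76 in EGFP-high cells, a fitted difference of −0.38 (SE 0.20). The sorts did not overlap in either line. The LLC call was lost without LLC pair 1 (−0.75, adjusted p = 0.29) and without LLC pair 2 (−1.16, adjusted p = 0.059).

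Tenascin C, a hexameric glycoprotein that weakens adhesion to fibronectin, was low in LLC and near the top of the range in colon26. Its signal was 6.92 and 6.26 in LLC EGFP-low and 4.07 and 4.26 in LLC EGFP-high cells, a fitted difference of −2.42 (SE 0.22). The colon26 signal was 13.66 and 13.85 in EGFP-low and 13.47 and 13.72 in EGFP-high cells, a fitted difference of −0.16 (SE 0.22). The sorts were apart in LLC and overlapped in colon26. The mean of both Tnc probe sets, of which 1456344_at was dim in LLC, gave −1.22 in LLC. In colon26 Fn1 and Tnc lay between 13.46 and 13.87, where the highest signal of an array was 14.47 to 14.51, and whether such bright spots understate differences was not tested.

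Thrombospondins 1 and 2 bind CD36 and CD47 and restrain vessel growth, and thrombospondin 1 can also activate latent TGF-beta. Thbs1 was at 5.29 and 5.98 in LLC EGFP-low and 4.23 and 4.89 in LLC EGFP-high cells, a fitted difference of −1.08 (SE 0.18). Its colon26 signal was 10.27 and 11.61 in EGFP-low and 9.79 and 10.999 in EGFP-high cells, a fitted difference of −0.55 (SE 0.18). The colon26 sorts overlapped because the numbers differed by more than the sorts, although both pairs were lower. The Thbs1 call in LLC was lost without LLC pair 1 (−1.09, adjusted p = 0.054) and without LLC pair 2 (−1.06, adjusted p = 0.096), and with the mean of both probe sets (−0.55, adjusted p = 0.068). Thbs2 was at 9.06 and 8.42 in LLC EGFP-low and 7.46 and 6.71 in LLC EGFP-high cells, a fitted difference of −1.65 (SE 0.18). The colon26 arrays read 12.48 and 12.49 in EGFP-low and 12.13 and 11.98 in EGFP-high cells, a fitted difference of −0.43 (SE 0.18). Its sorts were apart in both lines.

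Prg4 encodes lubricin, the mucin-like lubricant of joint surfaces. It was at 4.72 and 4.62 in LLC EGFP-low and 4.42 and 4.27 in LLC EGFP-high cells, below the filter on all 4 arrays, with a fitted difference of −0.33 (SE 0.31). In colon26 Prg4 was at 8.78 and 6.79 in EGFP-low and 4.88 and 4.54 in EGFP-high cells, a fitted difference of −3.07 (SE 0.31). Since Prg4 passed the filter only through the 2 colon26 EGFP-low arrays, the direction of that difference was fixed. The 2 colon26 EGFP-low arrays stood above all others. They exceeded the colon26 EGFP-high array of the same number by 14.9-fold in pair 1 and 4.73-fold in pair 2. Those EGFP-high signals were under 5, so the folds depend on the array's background. Prg4 was the reverse of Fn1, Vcan and Tnc in this respect, with its large gap in colon26.

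**Figure D2:**
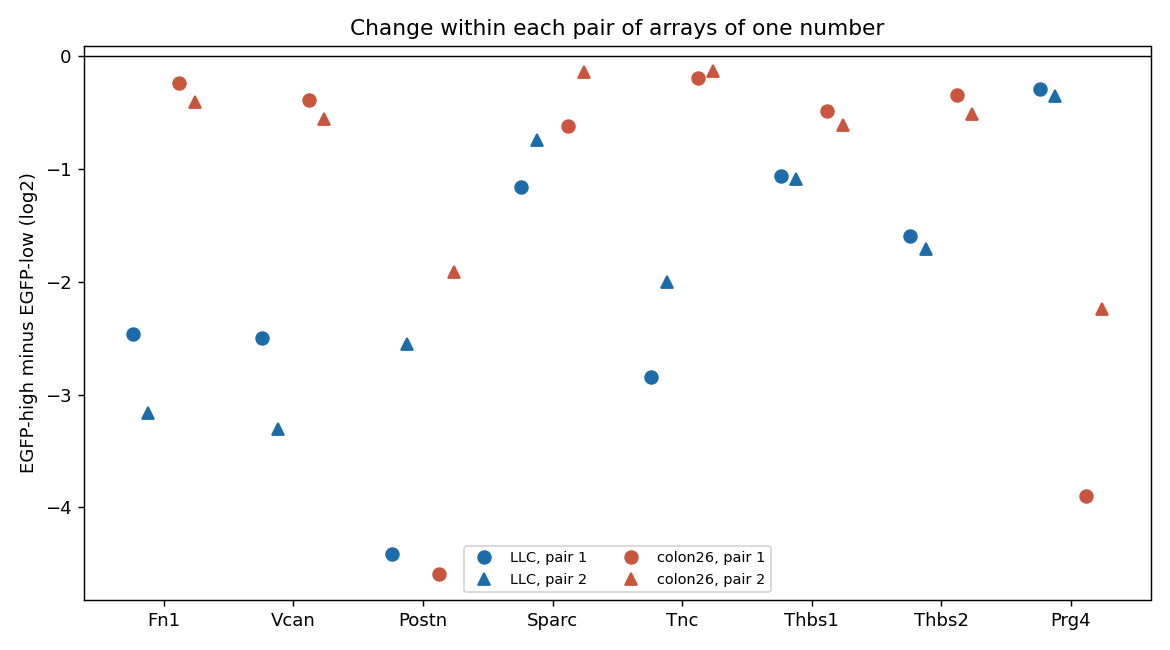
EGFP-high minus EGFP-low log2 difference of each gene within each of the 4 pairs of line and number (LLC blue, colon26 red; circles number 1, triangles number 2). Every point lies below 0; Fn1, Vcan, Tnc and Thbs2 lie further below 0 in LLC than in colon26 and Prg4 further below 0 in colon26.

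The difference between the lines in these gaps was fitted as the LLC difference minus the colon26 difference. It was −2.49 (SE 0.29) for Fn1, −2.43 (SE 0.31) for Vcan, −2.26 (SE 0.31) for Tnc and −1.22 (SE 0.25) for Thbs2. These 4 genes were called with the lower value in LLC, against 0.985% of all genes. Prg4 went the other way at 2.74 (SE 0.44) and was called, against 0.427% of all genes in that direction. Prg4 passed the filter only through colon26 EGFP-low cells and was under 5 on all LLC arrays, so it had no room to be lower in LLC and its sign here was fixed. Postn (−0.23, SE 0.76), Sparc (−0.57, SE 0.28) and Thbs1 (−0.52, SE 0.25) were not called. The choice of the genes drew on this contrast too, so nothing is read from the counts. Leaving out either colon26 pair, quantile normalization, or no pair block each left 0 of the 5 calls.

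Genes listed as markers of some other cell types moved with the sort, and which cells made these transcripts was not tested. To set beside the counts of all marker lists, the shares of all genes were 6.04% lower and 4.98% higher in LLC. In colon26 they were 1.58% lower and 2.18% higher. Of 14 fibroblast markers, 8 fell in EGFP-high LLC cells and 5 in EGFP-high colon26 cells. Dcn (−3.39, SE 0.25) and Col1a2 (−3.40, SE 0.40) fell in LLC, and Thy1 (−1.99, SE 0.37) and Fap (−1.65, SE 0.37) in colon26. The mean log2 signal of the 14 ran from 9.17 to 9.54 in LLC EGFP-low, 7.74 to 7.91 in LLC EGFP-high, 9.94 to 10.42 in colon26 EGFP-low and 9.28 to 9.55 in colon26 EGFP-high cells. None of the 14 was under 5 on all arrays.

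Macrophage markers fell in both lines, 10 of 14 in LLC and 13 of 14 in colon26, with Lyz2 at −2.16 (SE 0.19) and −4.64 (SE 0.19). Their mean signal over 15 markers ran from 6.47 to 6.68 in LLC EGFP-low, 5.33 to 5.48 in LLC EGFP-high, 8.01 to 8.42 in colon26 EGFP-low and 5.54 to 5.68 in colon26 EGFP-high cells, and Itgam was under 5 on all arrays. Of 9 endothelial markers tested, 0 were called in LLC by limma with the pair block (2 at an unadjusted p under 0.05) and 3 fell in colon26 (Emcn −1.94, Cdh5 −1.30, Esam −1.27). Their mean signal over 12 markers ran from 4.71 to 5.23 in LLC EGFP-low, 4.60 to 4.83 in LLC EGFP-high, 5.58 to 5.81 in colon26 EGFP-low and 4.79 to 4.86 in colon26 EGFP-high cells, with Tek and Vwf under 5 on all arrays. Of 7 pericyte markers tested 1 fell in each line (Pdgfrb −1.91 in LLC, Kcnj8 −1.25 in colon26), and Myh11 and Notch3 were under 5 throughout. The part of any of these cells in the matrix genes' values was not tested.

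The remaining marker lists were thin. Of 6 platelet markers tested, Pf4 and Ppbp fell in LLC (−1.64 and −0.95) and Pf4 in colon26 (−2.95). Of 4 neutrophil markers tested, S100a8 and S100a9 fell in both lines, while Csf3r, Cxcr2 and Ngp were under 5 on all arrays. The mesothelial markers had 2 genes tested in LLC, of which Bnc1 fell (−1.24) and Msln rose (0.75), and limma called neither in colon26, where 0 had an unadjusted p under 0.05. Of the T and NK cell (4 tested), B cell (1 tested) and epithelial (5 tested) markers limma called 0 in either line. At an unadjusted p under 0.05 there was 1, a T and NK cell marker in colon26. No adipocyte marker passed the filter. For the labelled carcinomas, Cdh1, Cldn7 and Krt19 were under 5 on all arrays. Krt8, a keratin of simple epithelia, ran from 12.36 to 12.80 in LLC and from 5.31 to 5.95 in colon26.

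The lines were also compared within a sort, on the same arrays. The EGFP-high line difference minus the EGFP-low one equals the contrast above on which the choice drew, so these tests are not independent of the choice, and how a line difference changes between the sorts is a description. With the number as a term in limma, 6 of 8 genes were lower in LLC than in colon26 in EGFP-low cells, against 25.2% of all genes, and 1 was higher, against 21.0%. In EGFP-high cells 6 of 8 were lower in LLC, against 23.5%. The median difference of the 8 was −2.46 and −3.20, against −0.07 and −0.09 for all genes. For 5 of the 8 all colon26 arrays lay above all LLC arrays, as they did for 19.9% of all genes.

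Tnc had the widest gap between the lines among the 8 genes. It was lower in LLC, with an LLC minus colon26 difference of −7.17 in EGFP-low cells (SE 0.25, limma adjusted p = 4.7e-07) and of −9.43 in EGFP-high cells (SE 0.25, limma adjusted p = 1.7e-07). In EGFP-low cells this is 144-fold, and in EGFP-high cells, with LLC signals near 4, the fold depends on the array's background. Within numbers the EGFP-low difference was −6.75 and −7.60.

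The thrombospondins shared this direction. For Thbs1 the difference was −5.31 in EGFP-low cells (SE 0.22, limma adjusted p = 1.2e-06), or 39.6-fold, and −5.83 in EGFP-high cells (SE 0.22, limma adjusted p = 6.7e-07). For Thbs2 it was −3.75 (SE 0.22, limma adjusted p = 7.3e-06), or 13.4-fold, and −4.97 (SE 0.22, limma adjusted p = 1.5e-06), or 31.3-fold. Both genes were lower in LLC on both numbers in both sorts. For Sparc it was −1.52 in EGFP-low (SE 0.23, limma adjusted p = 0.0011) and −2.09 in EGFP-high cells (SE 0.23, limma adjusted p = 2e-04). Sparc 1448392_at gave −1.89 and −2.85, while Sparc 1458204_at gave −0.27 and −0.02 (limma adjusted p = 0.3 and 0.96).

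Fn1 was also lower in LLC, with a difference of −1.81 in EGFP-low cells (SE 0.23, limma adjusted p = 0.00046), or 3.52-fold, and −4.31 in EGFP-high cells (SE 0.23, limma adjusted p = 3.3e-06), or 19.8-fold. With the mean of both Fn1 probe sets the EGFP-low difference was −1.20 (limma adjusted p = 0.017). Fn1 1437218_at alone gave −0.58 in EGFP-low cells (limma adjusted p = 0.35) and −3.16 in EGFP-high cells (limma adjusted p = 0.0023). On number 2 its EGFP-low signal was higher in LLC (7.34) than in colon26 (6.97). Vcan changed sides: LLC was higher by 1.48 in EGFP-low cells (SE 0.22, limma adjusted p = 0.001) and lower, at −0.94, in EGFP-high cells (SE 0.22, limma adjusted p = 0.01). The EGFP-high Vcan call was lost without LLC EGFP-high number 2 (−0.72, adjusted p = 0.12) and without colon26 EGFP-high number 1 (−0.84, adjusted p = 0.095) or number 2 (−1.04, adjusted p = 0.057). It was also lost with no term for the number (adjusted p = 0.08). The EGFP-low Vcan call was lost when all 8 of its probe sets, 4 of them under the filter, were averaged (0.38, adjusted p = 0.065). Alone, Vcan 1421694_a_at gave 1.45 and 1427257_at gave 1.74 in EGFP-low cells (limma adjusted p = 0.0061 and 0.0079). In EGFP-high cells they gave −1.07 and −1.02 (limma adjusted p = 0.024 and 0.063). The dim 1433043_at gave −0.57 in EGFP-low cells (limma adjusted p = 0.27).

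Prg4 is given as levels only, since it entered the fit through the colon26 EGFP-low arrays (8.78 and 6.79) and was under 5 on the 6 other arrays. Its line difference in EGFP-low cells, and its place among the 6 genes counted as lower there, follow from that filter. Postn was not called between the lines in either sort. Its difference was −0.09 in EGFP-low (95% interval −1.52 to 1.34, limma adjusted p = 0.92) and −0.32 in EGFP-high cells (−1.75 to 1.11, limma adjusted p = 0.72), intervals that leave room for gaps above 2-fold. Its sign changed with some alternatives.

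**Figure D3:**
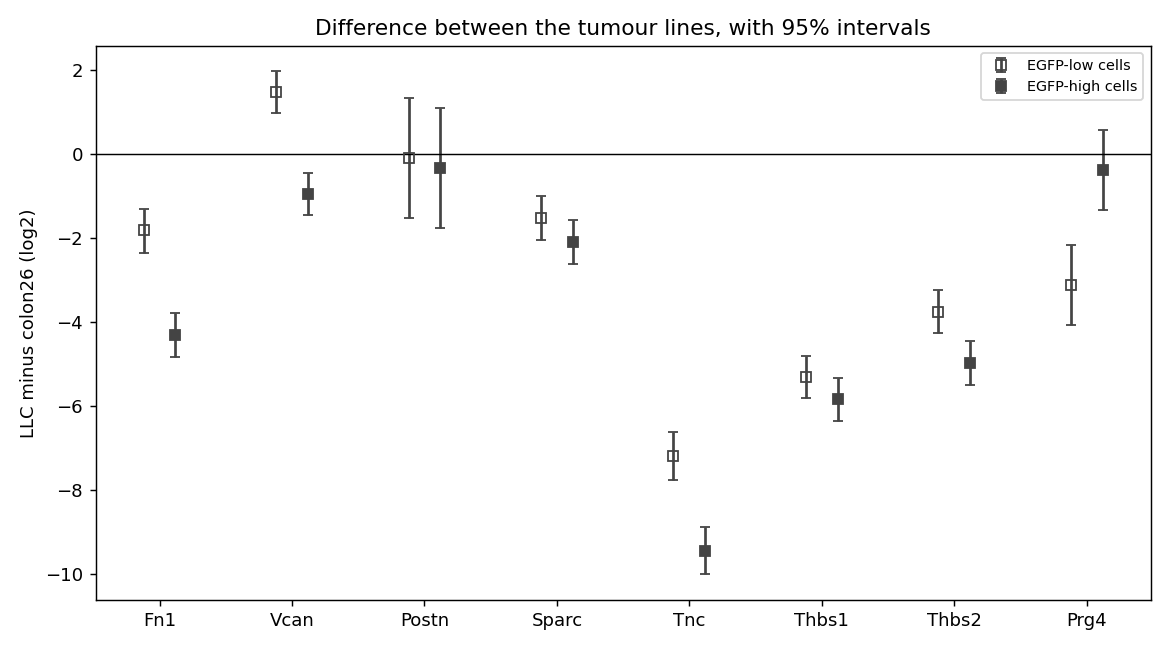
LLC minus colon26 log2 difference of each gene in EGFP-low and in EGFP-high cells, with 95% intervals. Tnc, Thbs1 and Thbs2 lie furthest below 0, Vcan is above 0 in EGFP-low and below 0 in EGFP-high cells, and both Postn intervals and the EGFP-high Prg4 interval span 0.

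Cell type markers differed between the lines as well. The shares of all genes were 25.2% lower and 21.0% higher in EGFP-low cells, and 23.5% lower and 15.7% higher in EGFP-high cells. In EGFP-low cells 7 of 14 fibroblast markers were lower in LLC and 2 higher, and in EGFP-high cells 8 were lower and 1 higher. Col1a1 had a difference of −3.42 in EGFP-low (SE 0.23, limma adjusted p = 1.5e-05) and −4.84 in EGFP-high cells (SE 0.23, limma adjusted p = 2e-06). Macrophage markers were lower in LLC in EGFP-low cells (12 of 14) but not as a group in EGFP-high cells (1 lower and 2 higher). Their part in the line differences of the matrix genes was not tested.

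In order of group means, Fn1, Sparc, Tnc, Thbs1 and Thbs2 ran from colon26 EGFP-low through colon26 EGFP-high and LLC EGFP-low to LLC EGFP-high. For these 5 genes the colon26 neighbours were close. Tnc was at 13.76 ± 0.13 and 13.60 ± 0.18 (SD, n = 2), and Thbs1 at 10.94 ± 0.95 and 10.39 ± 0.86 (SD, n = 2), so neither pair of means differed beyond this unpaired spread. For Thbs1 that spread is mostly the shift between the numbers, and within numbers both sorts kept 1 order (−0.49 and −0.61 for Thbs1, −0.19 and −0.13 for Tnc). Vcan ran from LLC EGFP-low (11.98 ± 0.41; SD, n = 2) through colon26 EGFP-low (10.49 ± 0.10) and colon26 EGFP-high (10.02 ± 0.02) to LLC EGFP-high (9.08 ± 0.16). Postn had both EGFP-low groups on top, at 8.46 ± 1.94 in colon26 and 8.37 ± 1.11 in LLC, which overlapped, and then 5.21 ± 0.04 and 4.89 ± 0.21 (SD, n = 2). Prg4 was at 7.78 ± 1.41 in colon26 EGFP-low, with 4.71 ± 0.24, 4.67 ± 0.07 and 4.35 ± 0.11 (SD, n = 2) in colon26 EGFP-high, LLC EGFP-low and LLC EGFP-high cells.

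As a description over the 8 arrays, after the mean of each number was removed, Fn1, Sparc, Tnc, Thbs1 and Thbs2 correlated pairwise at Pearson r from 0.90 to 1.00. Vcan correlated less with them (r = 0.44 with Fn1, 0.23 with Sparc, 0.14 with Thbs2, 0.07 with Tnc and 0.01 with Thbs1) and was nearest to Postn (r = 0.73). The arrays share lines and sorts, so a gene with the same step between groups gets a high r. Among all genes tested, the nearest to Postn were Lox (r = 0.972), a collagen and elastin crosslinking enzyme, and Ccn2 (r = 0.962), a matricellular protein. The nearest to Prg4 were Akap12 (r = 0.996) and Cd163 (r = 0.996), a macrophage scavenger receptor. For Fn1 they were Kifap3 (r = 0.997) and Prrx1 (r = 0.996), for Vcan Pcmtd2 (r = 0.986) and Dstyk (r = 0.985), and for Sparc Glis1 and Rnase4 (r = 0.995 each). Tnc had Egr1 (r = 0.999) and Atp6v1b2 (r = 0.998), Thbs1 had Chst15 (r = 0.999) and Lif (r = 0.998), and Thbs2 had Rrbp1 (r = 0.999) and Sh3pxd2b (r = 0.998).

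The other probe sets of the genes gave a check on single probes. Of 22 probe sets 18 passed the filter, and the 4 that did not were all of Vcan. Of the 18, 15 were lower in EGFP-high cells in both LLC pairs, 17 in both colon26 pairs and 15 in all 4 pairs. The shares of the 21773 probe sets above the filter were 33.9%, 18.6% and 8.69%, and nothing is read from these counts either. Vcan 1433043_at and Prg4 1449824_at are among the 15 and passed the filter only through EGFP-low arrays, so their places there are tied to that filter. On number 2 the Vcan 1433043_at differences were −0.16 in LLC and −0.01 in colon26. In 10 of the 18 all colon26 arrays lay above all LLC arrays, as in 17.5% of the 21773. Thbs1 1450377_at and Tnc 1456344_at are among the 10 and passed the filter only through colon26 arrays, so that follows from the filter. The Vcan probe sets 1421694_a_at and 1427257_at were close to 1427256_at, with LLC pair differences of −2.43 and −3.37 and of −2.83 and −3.61. Sparc 1458204_at was higher in both LLC EGFP-high arrays (0.30 and 0.15), unlike Sparc 1448392_at (−1.25 and −1.11). Thbs1 1450377_at and Tnc 1456344_at were at or under 4.50 on all LLC arrays and differed in sign between the LLC pairs.

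In colon26 several probe sets differed more between the numbers than between the sorts. Fn1 1437218_at had a number 2 minus number 1 difference of −3.43 in colon26 EGFP-low and −3.48 in colon26 EGFP-high cells, while Fn1 1426642_at differed there by 0.04 and −0.13. In LLC its number differences (−1.53 and −1.95) were smaller than its sort differences (−2.97 and −3.39). Thbs1 1450377_at was higher on number 2 by 3.93 and 3.66 in the same groups, against 1.34 and 1.21 for Thbs1 1460302_at. Tnc 1456344_at differed by −2.41 and −2.24. Postn and Prg4 have 1 probe set each, and in colon26 EGFP-low cells both were lower on number 2, at −2.74 and −1.99. The numbers also differ in the 3′ to 5′ signal given above, and its part in these shifts was not tested.

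**Figure D4:**
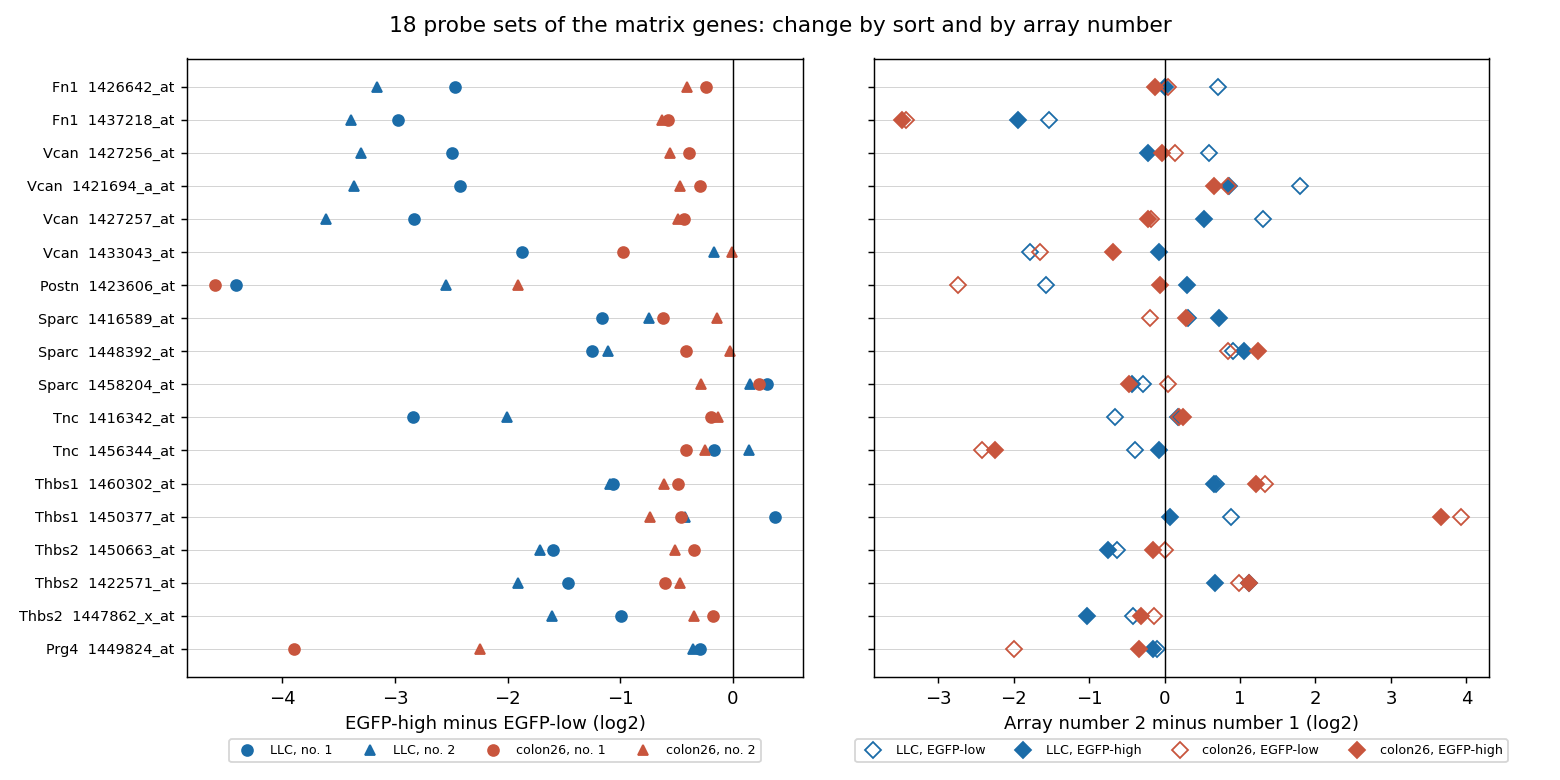
The 18 probe sets above the filter: left, EGFP-high minus EGFP-low log2 difference in each of the 4 pairs; right, array number 2 minus number 1 in each of the 4 groups. On the left 15 probe sets lie below 0 in all 4 pairs; on the right Fn1 1437218_at and Thbs1 1450377_at shift by over 3 in opposite directions in colon26.

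For the lists of related genes the shares of all genes to set beside the counts are 6.04% lower and 4.98% higher in LLC, and 1.58% lower and 2.18% higher in colon26. Between the lines they are 25.2% lower and 21.0% higher in EGFP-low and 23.5% lower and 15.7% higher in EGFP-high cells. Of the other matricellular proteins, 17 tested of 27, 6 fell in EGFP-high LLC cells and 2 in colon26, with none higher (median −0.44 and −0.17). Tgfbi (−1.97), which binds integrins and collagen, and Thbs3 (−1.77) fell in LLC. Sparcl1, a close relative of Sparc, fell in both lines (−1.23 in LLC and −2.91 in colon26), and so did Ccn2 (−1.75 and −1.78). Between the lines 7 were lower and 2 higher in LLC EGFP-low cells, and 8 lower and 1 higher in EGFP-high cells. Mgp, an inhibitor of calcification, had differences of −7.35 and −7.58, with limma adjusted p = 6e-06 and 4.7e-06.

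Of 20 genes of fibronectin, fibrillin and elastic fibre assembly, 8 fell in LLC and 2 in colon26, with none higher (median −0.53 and −0.06). Ltbp3 (−1.87), which stores latent TGF-beta, and the elastin gene Eln (−1.43) fell in LLC. The crosslinking enzymes Tgm2 (−1.05 in LLC and −1.89 in colon26) and Lox (−1.92 and −2.48) fell in both lines. Between the lines 10 were lower and 4 higher in LLC EGFP-low cells, and 10 lower and 2 higher in EGFP-high cells. The microfibril protein Mfap5 had differences of −4.85 and −5.82 (limma adjusted p = 8.5e-07 and 3.6e-07).

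Of 13 versican and hyaluronan partners, 5 fell and 1 rose in LLC, and only 1 was called in colon26, where it rose (median −0.22 and −0.14). The versican-cleaving proteases Adamts1 (−2.66, SE 0.21) and Adamts5 (−2.10, SE 0.19) fell in LLC. The gene that rose in both lines was Hmmr, a hyaluronan receptor that also acts at the mitotic spindle (1.60 in each, SE 0.27). Between the lines 3 of 13 were lower and 1 higher in LLC in both sorts. The lower counts were near the shares of all genes, and the higher counts were below them. Adamts5 had differences of −1.22 and −3.06 (limma adjusted p = 0.0013 and 7.3e-06).

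Of 14 receptors for these proteins, 3 fell in LLC and 2 in colon26, with none higher (median −0.44 and −0.20). In LLC the integrin subunits Itgb5 (−1.27) and Itgb3 (−0.81) and the endocytic receptor Lrp1 (−1.12) fell. In colon26 the thrombospondin receptor Cd36 (−2.97) and the scavenger receptor Stab1 (−1.77), both made by macrophages and endothelium, fell, with uncalled LLC differences of −0.69 and −0.44. Between the lines 7 were lower and 1 higher in LLC EGFP-low cells, and 5 lower and 1 higher in EGFP-high cells. Itgb3 was the gene that was higher in EGFP-low LLC cells, by 1.21 (limma adjusted p = 0.00092).

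Of 11 TGF-beta ligands and responses, 5 fell in LLC and limma called 0 in colon26, 3 at an unadjusted p under 0.05 (median −0.66 and −0.16). Tgfb2 (−1.50) and Tgfb3 (−0.95), both ligands, and Cthrc1 (−1.60), a secreted protein of activated fibroblasts, fell in LLC. In limma with the pair block Tgfbr2 had a colon26 difference of −0.54 (adjusted p = 0.22). Between the lines 7 were lower in LLC EGFP-low and 8 in EGFP-high cells, with none higher. Against these lists, all 14 mitosis genes rose in EGFP-high LLC cells and 13 of 14 in colon26 (median 2.05 and 1.70). Ndc80, a kinetochore subunit, rose by 1.91 (SE 0.19) and 1.64 (SE 0.19).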

How the data were processed

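Total RNA (6 ug) of sorted cells was extracted with Trizol and hybridised as biotinylated cRNA on Affymetrix arrays, per the labels' protocols. The authors deposited RMA values on a log2 scale, per the submitters' processing notes; the software, its version and its options are not given there. The colon26 descriptions name LLC, but titles and cell line fields say colon26 and were followed. The number of arrays, 2 per group, limits the precision.

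Of the probe sets, 34945 carried 1 gene symbol. For a gene with several probe sets the brightest on average was used, and a log2 signal above 5 on at least 2 arrays was required; 1 probe set shared by Thbs1 and another gene was left out. limma 3.58.1 in R 4.3.3 was fitted on all tested genes with Benjamini-Hochberg adjustment at 0.05. EGFP-high minus EGFP-low used the pair (line and number) as block term (2 residual degrees of freedom, prior 8.25). Line contrasts used group and number (3 residual degrees of freedom, prior 5.16). The pairing comes from the labels' replicate numbers and the shared deviations given above. The members and the lists (6 of genes, 11 of markers) were chosen with earlier results of these data known. Named genes were all members, up to 4 called genes of a list by smallest p (the 2 brightest where none was called), and the 2 nearest genes to each member by Pearson r; Krt8 was chosen after its values were seen. Models were tested on simulated data.

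Alternatives were no block, a block shared by the lines, no filter, a filter of 7, median centring, quantile normalization, a mean-variance trend (robust), the mean of all probe sets, each probe set as its own unit, the arrays of 1 line and leaving out each array or pair. Figures used matplotlib 3.10.9 in Python 3.11.15.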

Additional observations from a re-analysis of the deposited data

Results flagged for a closer look

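The difference between LLC and colon26 in the EGFP-high minus EGFP-low change, an interaction term, was called for 5 genes that were selected on these arrays. It was −2.49 for Fn1, −2.43 for Vcan, −2.26 for Tnc and −1.22 for Thbs2, each lower in LLC, and 2.74 for Prg4, whose drop was in colon26.
None of the 5 was called without either colon26 pair, with quantile normalization or with no replicate block. With a block shared by the lines 2 were called, and Tnc (adjusted p = 0.087), Thbs2 (0.25) and Prg4 (0.15) were not. Prg4 was under 5 on all LLC arrays and passed the filter only through colon26 EGFP-low cells, which fixed its sign.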

How the results depend on the processing

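Without the replicate block 0 of the 8 genes were called for LLC, colon26, the mean of both lines or the difference between lines, by limma as before, although the fitted values are the same; 6, 2, 7 and 5 had an unadjusted p under 0.05. For colon26 the count was 1 with a filter of 7, where Prg4 was not tested and Postn was called. The count was also 1 with quantile normalization and with the mean-variance trend, where Prg4 was called and Postn was not. For the difference between lines it was 2 with a replicate block shared by the lines, 3 with no filter, 3 with the mean of all probe sets and 0 with quantile normalization (5 at an unadjusted p under 0.05). Leaving out 1 array or pair, where a lone pair is taken to vary like the pairs of the other line, gave counts of 5 to 7 for LLC, 1 to 2 for colon26, 6 to 8 for the mean and 0 to 4 for the difference between lines. For the lines it gave 7 to 7 in EGFP-low and 5 to 6 in EGFP-high cells. The cause of the other changes in count was not tested.

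The sign turned 8 times in 682 values of single genes and settings; 607 kept direction and side of the threshold and 67 lost the call. Postn in EGFP-low cells, LLC minus colon26, became 0.09 with median centring and ran from −1.24 to 1.06 with 1 array left out (0.28 without LLC EGFP-low number 2, 1.06 without colon26 EGFP-low number 1). In EGFP-high cells it ran from −1.19 to 0.56 (0.56 without LLC number 1, 0.32 without colon26 number 2). Its difference between lines ran from −1.57 to 1.11 (0.70 without LLC pair 1, 1.11 without colon26 pair 2). That of Thbs1 became 0.02 with the mean of all probe sets. Postn lost its call under the mean-variance trend in LLC (adjusted p = 0.20), colon26 (0.32) and the mean (0.12), and in colon26 under quantile normalization (0.12). Thbs1 lost its LLC call with the mean of all probe sets (−0.55).

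Over all genes, the calls were 1342 in LLC, 459 in colon26, 1588 for the mean and 172 for the difference between lines, against 0, 3, 7 and 0 without the block. In colon26 the share of lower calls was 42.0%, 71.8% of 156 with quantile normalization and 30.0% of 783 with median centring. Between lines the share of lower calls in EGFP-low cells was 54.5% and 39.4% with median centring, which moved the median of all genes from −0.07 to 0.12. The difference between lines had 4 calls with quantile normalization, 379 with median centring and 12 with the shared block. Signals near 4 to 5 lie at the arrays' median and limit the folds of Tnc, Thbs1, Prg4 and Postn.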
